A study of Mus musculus with 4 samples.

Results

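Genes for the secretory and transport work of the choroid plexus were read in coronal Visium-FFPE sections of the mouse brain. They are Ttr, Kcnj13, Clic6, Kl, Aqp1, Otx2, Enpp2, Calml4, Slc4a5 and Ecrg4, and all 10 were among the 19465 features of the probe set. They were chosen by name from what is known of the tissue, but with earlier results of these data known. Male wild-type C57BL/6 offspring were taken at P21. They were exposed through their dams, whose food held 2 mg/kg (MF) or 20 mg/kg (HF) folic acid while they carried and nursed the pups and for 2 weeks before they met a male. Each diet had 2 sections, and values of the 4 sections are always given in the order MF replicate 1, MF replicate 2, HF replicate 1 and HF replicate 2.

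The choroid plexus makes cerebrospinal fluid, and its epithelium is among the most secretory tissues of the brain. Ttr encodes transthyretin, a carrier of thyroxine, Enpp2 encodes autotaxin, which makes lysophosphatidic acid and is also produced by oligodendrocytes, Kl encodes klotho and Ecrg4 a precursor of secreted peptides. Kcnj13 (Kir7.1), Clic6, Aqp1 and Slc4a5 (NBCe2) move potassium, chloride, water and bicarbonate, Calml4 is a light chain of the myosin at the tips of microvilli, and Otx2 is a homeodomain transcription factor that the tissue needs to form and to be maintained.

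Depth was unequal before any comparison. MF replicate 1 held 90096877 UMIs in 3598 spots, against 42422997 in 3314 spots of MF replicate 2, 34982061 in 3197 spots of HF replicate 1 and 42506921 in 3343 spots of HF replicate 2. Because this library stood apart, the number of features called between the diets is also given without it. Levels are counts of UMIs in the spots of an area of a section, scaled to its total (CPM).

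Choroid plexus spots were 1 cluster of spots, found without using the 10 genes. Of the 50 genes leading this cluster, 18 were on a list of 24 choroid plexus markers, as were 6 of its first 10. Of those markers 23 were measured (Krt18 was not a feature), and all 23 were at least 2-fold higher in these spots than in distant spots in every section, which describes the cluster and is no check on a name that came from the same list. Distant spots lay at least 3 steps of the spot grid away, and there were 3525, 3257, 3116 and 3271 of them. The cluster took in 11, 9, 13 and 13 spots, which were 0.306%, 0.272%, 0.407% and 0.389% of the spots of each section. A spot covers several cells, and other tissue was read together with the epithelium. Ratios were taken for features with at least 10 UMIs in choroid plexus spots of the 4 sections together. Features without a count in the distant spots of any section were left out too. Markers absent from choroid plexus spots thus drop out, such as Hdc of the 12 ependymal ones measured. Among those kept, 11 of 11 ependymal and 9 of 10 meningeal markers (11 measured) were also at least 2-fold higher than in distant spots in all sections. White matter markers were not, with 0 of 11.

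All 10 genes reached at least 2-fold over distant spots in the 4 sections. So did 9.52% of features with a ratio (1097 of 11522). This share leaves out features with few counts in choroid plexus spots and those without a count in the distant spots of any section. The result for the 10 genes is a description, because they were chosen for this tissue. Ttr was 210 times its distant level on average (172, 218, 227 and 223 times), which put it at rank 4 among the features with a ratio. Slc4a5 followed with 183 times (rank 11), Ecrg4 with 166 (rank 14), Aqp1 with 166 (rank 16) and Kcnj13 with 157 (rank 17). Clic6 reached 109 (rank 31), Kl 95.7 (rank 37) and Calml4 78.7 (rank 44). The smallest ratios were those of Otx2, 55.3 times with 38.4, 47.0, 44.2 and 91.5 in the sections (rank 70), and of Enpp2, 40.1 times (rank 90).

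Ttr alone made up 16.7%, 19.8%, 21.9% and 22.4% of all UMIs of choroid plexus spots, and the 10 genes together 18.2%, 21.6%, 23.7% and 24.2%. Ttr was present in 46 of 46 spots, with 764 to 16369 UMIs and between 52566 and 294308 CPM. Clic6, Enpp2 and Ecrg4 were likewise found in 46 spots, Kcnj13, Kl and Otx2 in 45, and Aqp1, Calml4 and Slc4a5 in 44. For the genes with the lowest counts a single spot held little, with a median of 3 UMIs for Otx2, 6 for Slc4a5, 8 for Kl and 9 for Kcnj13.

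**Figure D1:**
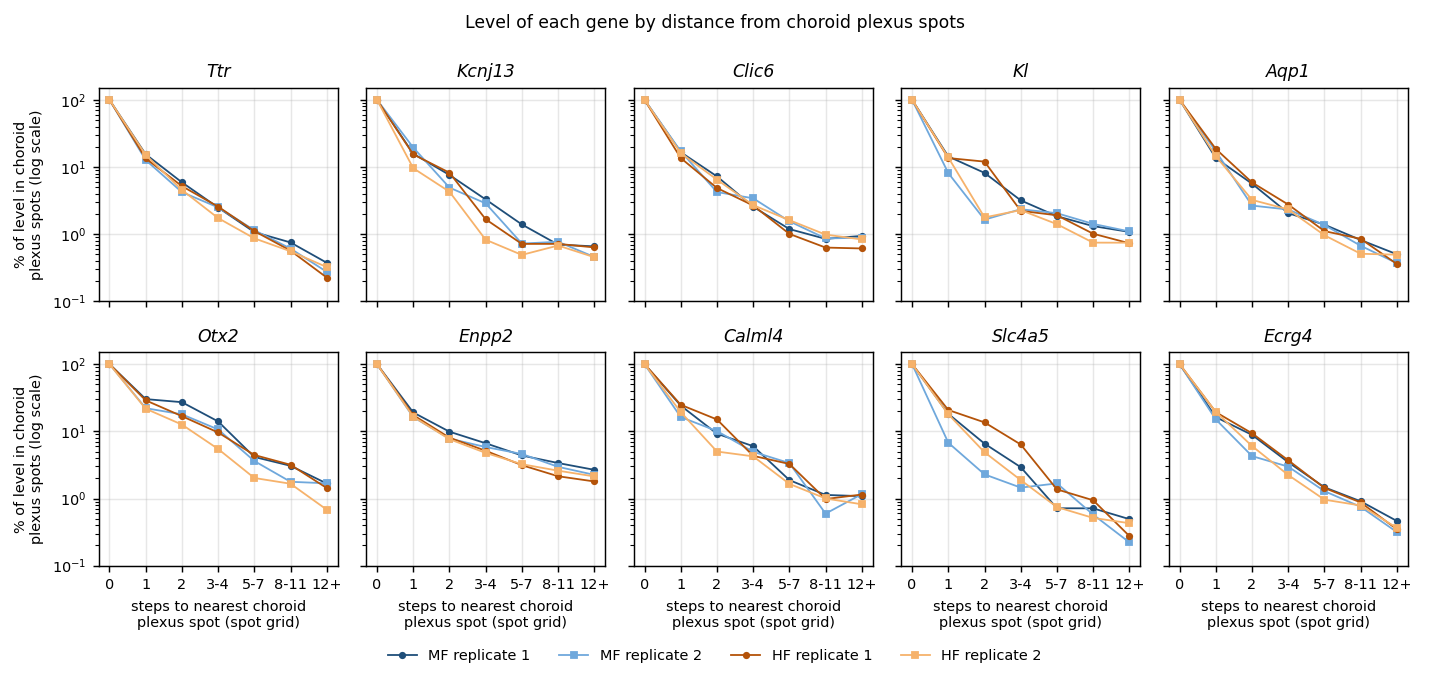
Level of each gene in rings of spots around the choroid plexus, as percent of its own level in choroid plexus spots of the same section. Points are the 4 sections, distances are steps of the spot grid, and the vertical axis is logarithmic.

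Around the choroid plexus the mean level of all 10 genes was lower in each ring out to 8 to 11 steps, and for all but Calml4 lower still beyond. At 1 step Ttr stood at 14.2% of its choroid plexus level, at 2 steps at 4.98%, and then at 2.33% (3 to 4 steps), 1.05% (5 to 7), 0.622% (8 to 11) and 0.3004% (12 or more). Its level in the ring of direct neighbours was 25762, 25215, 29376 and 33904 CPM. Slc4a5 (15.9% at 1 step and 0.355% at 12 or more), Ecrg4 (17.5% and 0.373%), Aqp1 (15.9% and 0.432%), Kcnj13 (15.1% and 0.552%), Clic6 (15.9% and 0.819%) and Kl (12.5% and 0.915%) took a similar course. From 2 to 7 steps Otx2, Calml4 and Enpp2 kept more of their level than the other 7 genes. Otx2 was at 25.7% after 1 step, 18.6% after 2 and 9.95% after 3 to 4, Calml4 at 21.1%, 9.84% and 4.88%, and Enpp2 at 17.3%, 8.34% and 5.60%. In the outermost ring 2.21% remained for Enpp2, 1.37% for Otx2 and 1.05% for Calml4, which was at 0.927% in the ring before it.

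The share of UMIs of a gene that lay within the choroid plexus spots differed accordingly. For Ttr it was 44.0%, 50.6%, 58.0% and 61.0%, with a further 16.7%, 9.64%, 14.3% and 12.8% within 2 steps and 39.3%, 39.8%, 27.7% and 26.2% in distant spots. For Kcnj13 the share in choroid plexus spots was 36.9%, 43.6%, 48.2% and 61.3%, for Aqp1 41.6%, 46.7%, 51.0% and 56.8%, for Slc4a5 41.2%, 55.1%, 44.8% and 57.6%, and for Ecrg4 38.5%, 47.0%, 47.9% and 56.1%. Clic6 had 33.4%, 33.8%, 49.3% and 45.8%, Kl 29.7%, 30.8%, 42.1% and 50.6%, and Calml4 27.2%, 27.4%, 32.5% and 44.6%. Enpp2 (15.9%, 17.2%, 27.7% and 28.3%) and Otx2 (16.4%, 19.4%, 24.5% and 41.2%) had the lowest shares. These shares also depend on how much choroid plexus a section caught.

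Ttr was found in nearly every distant spot, in 99.97%, 98.7%, 90.0% and 99.4% of them. Thinning to 5000 UMIs kept 3516, 3159, 2610 and 3146 distant spots that had as many, and the share was then 92.8%, 90.1%, 83.4% and 95.5%. Enpp2 was seen in 97.7%, 90.8%, 80.8% and 90.7% of distant spots (74.7%, 73.0%, 67.2% and 72.2% after thinning). Clic6 was present in 23.9%, 14.2%, 10.3% and 16.3% (6.23%, 6.24%, 4.52% and 7.50%) and Ecrg4 in 21.8%, 11.6%, 10.3% and 12.0% (5.92%, 5.13%, 5.56% and 5.37%). The other 6 genes were each found in fewer than 8% of distant spots, down to 2.70%, 1.04%, 1.35% and 1.35% for Slc4a5 (0.597%, 0.348%, 0.728% and 0.413%). By the deposited Moran's I, which scores how far like values lie together over a section, Ttr had 0.747, 0.638, 0.659 and 0.619 and ranked 9 of 18235, 11 of 17196, 10 of 16731 and 18 of 18100 features. Enpp2 ranked 200, 190, 177 and 233, Ecrg4 342, 371, 121 and 203, Clic6 682, 763, 361 and 381, Aqp1 715, 1197, 380 and 833, and Slc4a5 801, 1519, 297 and 743. Calml4 ranked 965, 1504, 378 and 761, Kcnj13 972, 1056, 821 and 949, Otx2 1299, 2176, 1248 and 1364, and Kl 1434, 3806, 936 and 1272.

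**Figure D2:**
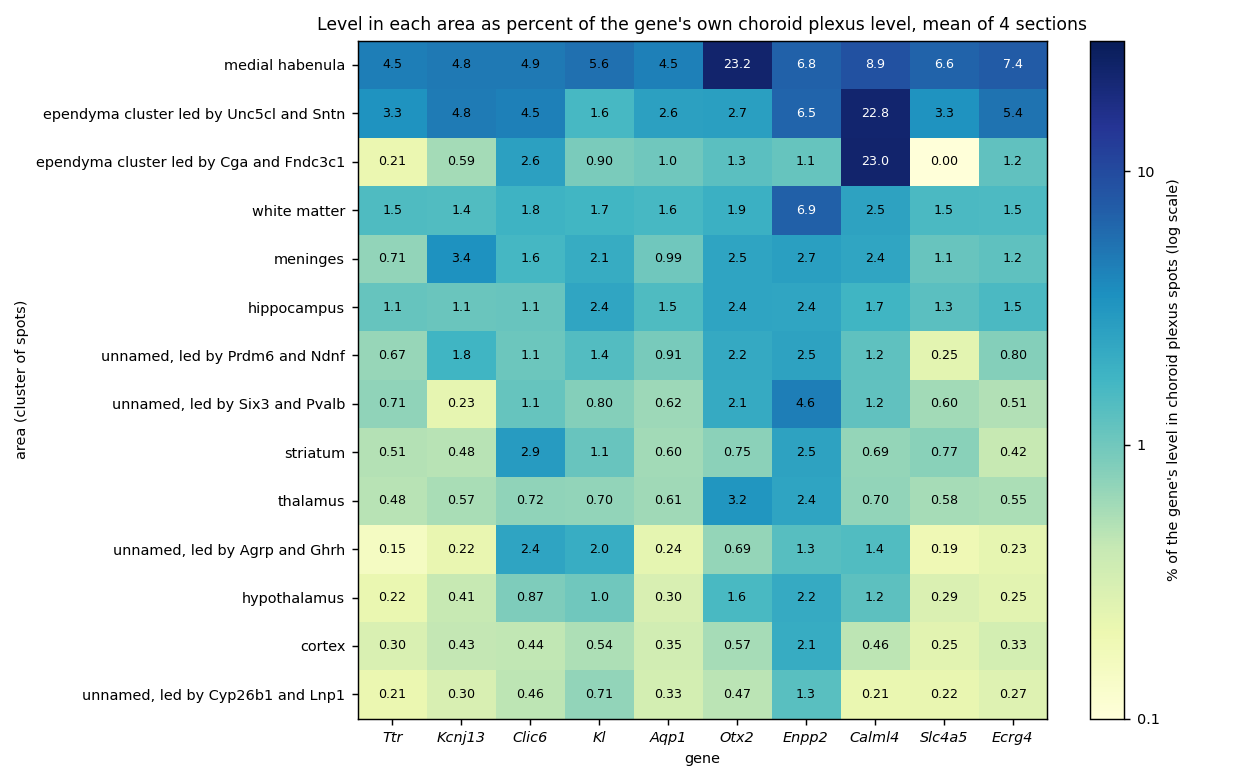
Level of each gene in 14 areas as percent of its own choroid plexus level, mean of the 4 sections. Areas without a name are given by their leading genes.

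Spots were grouped into 14 areas, 10 of them named by markers and 4 by their leading genes only. Outside the choroid plexus, a test for any difference between the named areas (edgeR, adjusted p under 0.05 and at least 1.2-fold between the highest and lowest area) called all 10 genes, where 90.8% of features were called (12467 of 13728). Adjusted p-values of edgeR for the 10 ranged from 3.50e-29 for Ecrg4 to 7.80e-12 for Kl, and DESeq2 called the same 10. The log2 ratio of the highest over the lowest area was 1.80 for Enpp2, 3.03 for Kl, 3.29 for Clic6, 3.48 for Kcnj13, 3.77 for Aqp1, 4.41 for Ttr, 4.51 for Slc4a5, 4.76 for Ecrg4, 5.08 for Otx2 and 5.59 for Calml4. With only spots at least 8 steps from choroid plexus, 8 of the 10 passed the filter on low counts and were called by edgeR, as were 88.5% of features (11872 of 13413), while Otx2 and Slc4a5 were too low to be tested.

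Ttr was highest in choroid plexus (201756 CPM), next in the medial habenula (9307, from 6202 to 12979), and then in white matter (2939, from 2031 to 3420), each apart from the area above it in all sections. Hippocampus (2204), ependyma (2025), meninges (1443), the regions led by Six3 and Pvalb (1434) and by Prdm6 and Ndnf (1356), striatum (1014) and thalamus (953) formed a run in which each overlapped its neighbour. Cortex (599, from 499 to 682) lay below thalamus without overlap, and hypothalamus (432) and the regions led by Cyp26b1 and Lnp1 (416) and by Agrp and Ghrh (299) overlapped again. The medial habenula was next to the medial patch of choroid plexus, at 1 step in every section.

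Ecrg4 kept the same leading pair, with 2073 CPM in choroid plexus and 153 (119 to 190) in the medial habenula, and ependyma came after it with 45.6, both without overlap. Hippocampus (30.9), white matter (30.6), meninges (25.7) and the Prdm6 and Ndnf region (16.7) overlapped in turn. Thalamus (11.3) was apart from them, and the Six3 and Pvalb region (10.4), striatum (8.57), cortex (6.82), the Cyp26b1 and Lnp1 region (5.44), hypothalamus (5.201) and the Agrp and Ghrh region (4.67) followed with overlap.

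Kl had 280 CPM in choroid plexus, 15.8 in the medial habenula and 6.50 in hippocampus, each apart from the area above. All later neighbours overlapped: meninges (5.92), the Agrp and Ghrh region (5.67), white matter (4.79), the Prdm6 and Ndnf region (3.95), striatum (3.11), ependyma (2.96), hypothalamus (2.81), the Six3 and Pvalb region (2.16), thalamus (1.94), the Cyp26b1 and Lnp1 region (1.91) and cortex (1.48).

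Enpp2 was the gene with the widest spread. After choroid plexus (12367 CPM) came white matter (850, from 769 to 919), apart from it, and the medial habenula (838, from 713 to 962), which overlapped white matter. The Six3 and Pvalb region (560, from 506 to 675) and meninges (332) were each apart from the area above. Ependyma (313), the Prdm6 and Ndnf region (308), striatum (306), thalamus (298), hippocampus (292), hypothalamus (263), cortex (260) and the regions led by Agrp and Ghrh (165) and by Cyp26b1 and Lnp1 (161) overlapped their neighbours. As percent of its choroid plexus level Enpp2 stood at 7.93%, 7.24%, 6.61% and 5.88% in white matter, where Ttr averaged 1.47%. In the Six3 and Pvalb region it was at 5.01%, 5.32%, 4.01% and 3.87%. Its percent was more than 2 times that of Ttr in 4 of 4 sections in these and all other areas except the medial habenula and hippocampus, with means of 2.69% in meninges, 2.54% in ependyma, 2.51% in striatum, 2.50% in the Prdm6 and Ndnf region, 2.43% in thalamus, 2.16% in hypothalamus, 2.11% in cortex, 1.33% in the Agrp and Ghrh region and 1.32% in the Cyp26b1 and Lnp1 region.

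Kcnj13 had 275 CPM in choroid plexus and 12.9 in the medial habenula, apart from it. Every neighbour after that overlapped, from meninges (9.07), the Prdm6 and Ndnf region (4.98), ependyma (4.20), white matter (3.85) and hippocampus (2.61) to thalamus (1.52), striatum (1.44), cortex (1.18), hypothalamus (1.17) and the regions led by Cyp26b1 and Lnp1 (0.780), Agrp and Ghrh (0.579) and Six3 and Pvalb (0.511). Such low levels rest on few UMIs in the smaller areas. In ependyma the lowest section was at 0 CPM for Kcnj13, Kl, Aqp1, Slc4a5 and Otx2 alike. The order of overlapping areas is therefore loose for these genes.

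Aqp1 was at 421 CPM in choroid plexus, 19.1 in the medial habenula and 6.90 in white matter, each apart. Hippocampus (6.28), ependyma (6.02), meninges (4.26), the Prdm6 and Ndnf region (3.87), the Six3 and Pvalb region (2.72), thalamus (2.60) and striatum (2.53) overlapped in turn, cortex (1.46) was apart, and the Cyp26b1 and Lnp1 region (1.35), hypothalamus (1.29) and the Agrp and Ghrh region (1.004) overlapped.

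Slc4a5 had 202 CPM in choroid plexus, 13.6 in the medial habenula and 3.06 in white matter, each apart from the area above. Hippocampus (2.53), meninges (2.21), striatum (1.54), ependyma (1.51), the Six3 and Pvalb region (1.202), thalamus (1.17), hypothalamus (0.579), cortex (0.511) and the regions led by Prdm6 and Ndnf (0.456), Cyp26b1 and Lnp1 (0.435) and Agrp and Ghrh (0.370) overlapped their neighbours.

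Clic6 had 1425 CPM in choroid plexus, 70.4 (52.1 to 107) in the medial habenula and 42.7 (40.6 to 44.2) in ependyma, each apart from the area above. Striatum (41.1, from 33.3 to 55.2), the Agrp and Ghrh region (34.2), white matter (26.1), meninges (23.6), hippocampus (15.5), the Six3 and Pvalb region (15.5), the Prdm6 and Ndnf region (15.01), hypothalamus (12.0) and thalamus (10.1) overlapped in turn. The Cyp26b1 and Lnp1 region (6.37) lay apart from thalamus and overlapped cortex (6.14). In striatum Clic6 kept 2.73%, 3.03%, 2.33% and 3.42% of its choroid plexus level, with Ttr at 0.51% on average, and was found in 43.8%, 31.8%, 19.9% and 38.0% of striatal spots (13.8%, 16.3%, 11.6% and 24.2% after thinning). In the Agrp and Ghrh region it kept 2.42%, 2.83%, 2.37% and 2.08%, beside 0.15% for Ttr. That region had only 4 spots with 29798 UMIs in HF replicate 2. Its values in that section, for Clic6 and for the other genes, rest on few UMIs or none. The HF replicate 2 value is therefore weak evidence of a level there.

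Only for Calml4 did ependyma come directly after choroid plexus. Choroid plexus (292 CPM) was followed by ependyma (67.4, from 54.8 to 81.3), the medial habenula (26.1) and white matter (7.39), each without overlap. Meninges (6.90), hippocampus (5.06), the Agrp and Ghrh region (3.98), the Prdm6 and Ndnf region (3.70), hypothalamus (3.55), the Six3 and Pvalb region (3.24), striatum (2.04), thalamus (2.03), cortex (1.34) and the Cyp26b1 and Lnp1 region (0.609) overlapped their neighbours. Ependyma held 25.6%, 21.8%, 24.8% and 20.5% of the choroid plexus level of Calml4. This area was made up of 2 clusters. The larger, led by Cga and Fndc3c1, is less surely ependyma, with 6 markers among its 50 leading genes but 1 among the first 10. With finer clusters (Leiden resolution 2) a cluster of 24 spots with the same 2 leading genes was left unnamed. The cluster led by Cga and Fndc3c1 (27, 22, 26 and 17 spots) lay a median of 44, 42, 36.5 and 33 steps from choroid plexus and held 25.5%, 20.4%, 27.0% and 19.3% of the Calml4 level, beside 0.21% for Ttr. The cluster led by Unc5cl and Sntn (8, 15, 10 and 10 spots) was closer, at 5.5, 5, 3.5 and 4.5 steps, and held 26.1%, 24.5%, 16.0% and 24.4%, beside 3.34% for Ttr.

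Otx2 was at 97.9 CPM in choroid plexus, 22.0 (20.0 to 27.0) in the medial habenula and 3.08 (2.45 to 3.82) in thalamus, each apart from the area above. Meninges (2.44), hippocampus (2.21), the Six3 and Pvalb region (2.19), the Prdm6 and Ndnf region (2.18), white matter (1.72), ependyma (1.52), hypothalamus (1.49), the Agrp and Ghrh region (0.634), striatum (0.622), cortex (0.515) and the Cyp26b1 and Lnp1 region (0.460) overlapped their neighbours. In the medial habenula Otx2 kept 29.9%, 20.4%, 24.0% and 18.4% of its choroid plexus level, against 3.73%, 3.59%, 5.002% and 5.81% for Ttr. In thalamus it kept 3.94%, 3.32%, 3.39% and 2.24%. These percents were over 2 times those of Ttr in all 4 sections, in hypothalamus (1.57%) as well.

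**Figure D3:**
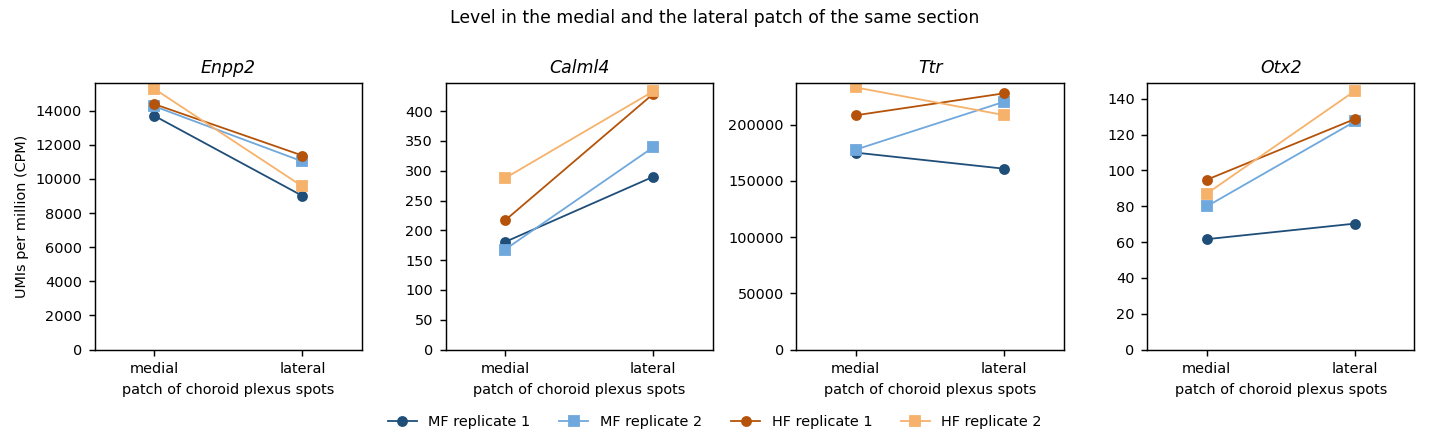
Levels of Enpp2, Calml4, Ttr and Otx2 in the medial and lateral patches of choroid plexus. Lines join the patches of 1 section.

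Choroid plexus lay in a medial patch (4, 4, 6 and 8 spots) and a lateral patch (7, 5, 7 and 5 spots), the latter 21, 22, 22 and 23 steps from the medial habenula. The patches were compared within sections, a comparison chosen after the levels had been seen. By edgeR 2 of the 10 genes differed, beside 7.30% of features (355 of 4861), and the median log2 ratio of the 10 was -0.05 against 0.0006 over all features. DESeq2 called 61 features and none of the 10, and 3 of the 10 had an unadjusted p under 0.05 in edgeR. Leaving out MF replicate 1 gave 207 called features, HF replicate 1 gave 200 and HF replicate 2 gave 230.

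Calml4 was at 180, 168, 217 and 288 CPM in the medial patch against 290, 340, 429 and 433 in the lateral patch (log2 ratio -0.78, SE 0.159, edgeR adjusted p 2.06e-04). It was lower medially in each section, and the patches did not overlap, the highest medial value (HF replicate 2) lying just below the lowest lateral value (MF replicate 1). Enpp2 was at 13709, 14266, 14392 and 15289 CPM medially against 9007, 11028, 11371 and 9563 laterally (log2 ratio 0.49, SE 0.148, edgeR adjusted p 0.0221). Every medial value was above every lateral value, though the call was lost without MF replicate 1 and without HF replicate 2. Otx2 had 61.6, 79.9, 94.8 and 87.0 CPM against 70.3, 127, 129 and 144 (log2 ratio -0.52, edgeR adjusted p 0.250), with overlapping patches. Ttr had 175087, 177807, 208297 and 233045 CPM against 160791, 220328, 227824 and 208451, a log2 ratio of -0.05. For the other genes the log2 ratio was 0.31 for Kl, 0.28 for Slc4a5, 0.23 for Ecrg4, -0.18 for Clic6, -0.10 for Aqp1 and -0.05 for Kcnj13, none of them called.

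The tissue around the epithelium differed between the patches as well. Sums here are over all measured markers of a list, tested or not. There were 12 ependymal, 11 white matter, 11 meningeal, 8 habenular and 23 choroid plexus markers. All 10 tested ependymal markers were called lower in the medial patch, with summed levels of 678, 967, 866 and 904 CPM against 1638, 1579, 2354 and 2546. Of 11 white matter markers 10 were called lower (9456, 10670, 7379 and 4393 against 23499, 15350, 17550 and 20981), and of 8 meningeal markers 6 were called higher (2060, 2166, 1895 and 1960 against 982, 1290, 1189 and 1095). Both tested habenular markers were called higher (all 8 measured summed to 471, 464, 332 and 322 against 46.9, 17.0, 12.3 and 72.2). All 4 tested striatal markers were negative (median log2 ratio -1.19), with 2 called lower. Of 7 tested thalamic markers 6 were positive (median 0.60), with 1 called higher. Choroid plexus markers summed to 6388, 6194, 7169 and 7786 CPM medially and 5948, 7505, 7951 and 6801 laterally, with 1 called higher and 2 lower of 22. The part of ependyma in the Calml4 difference and of the other tissues in the Enpp2 difference was not tested.

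**Figure D4:**
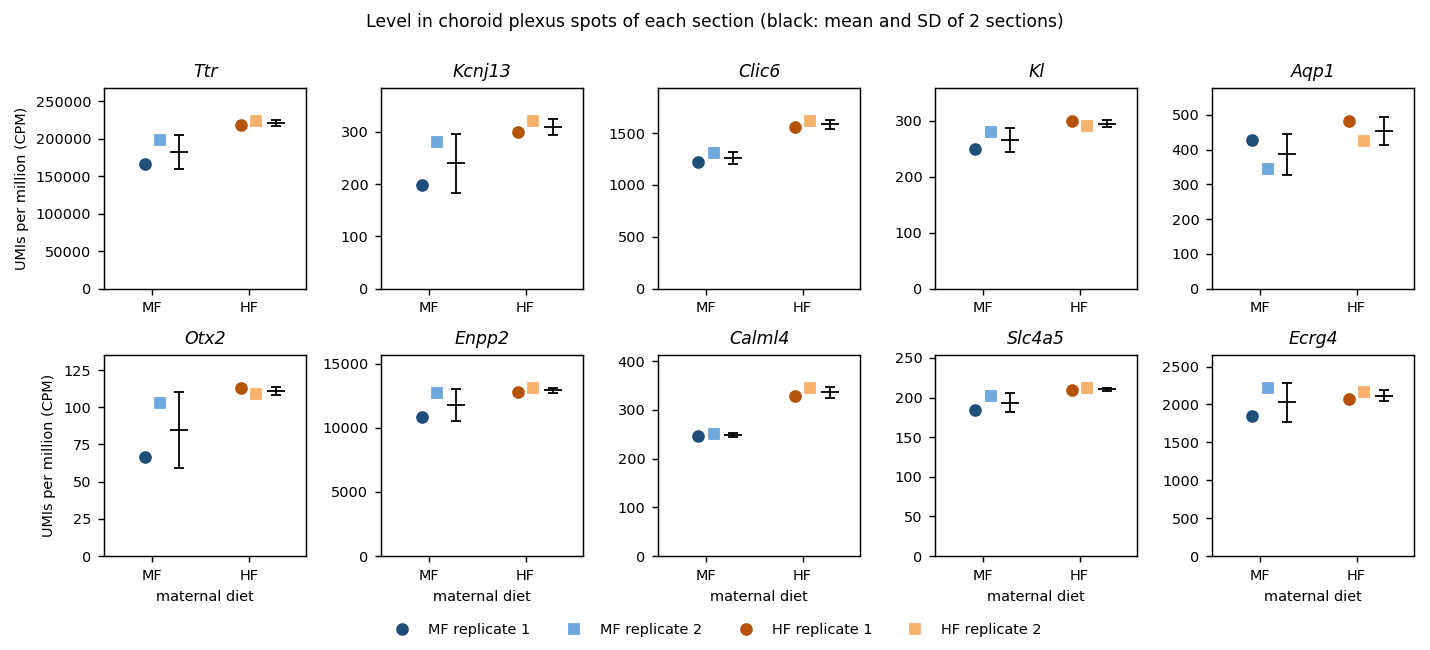
Levels of the 10 genes in choroid plexus spots of each section by maternal diet, with mean and SD of the 2 sections of a diet.

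Between the diets, no gene of the 10 was called in the choroid plexus by edgeR (0 of 10), where 0.0921% of features were called (7 of 7600). Counted at an unadjusted p under 0.05, 5 of the 10 and 671 of all features were below it, and DESeq2 called 0 features. The p-values measure the spread between these sections, and the labels do not say whether the sections of a diet came from separate litters. All 10 genes had a positive log2 fold change of HF over MF, from 0.14 to 0.57 with a median of 0.32 (0.0078 over all features, of which 50.9% were positive), but Kl, Aqp1, Enpp2, Slc4a5 and Ecrg4 turned negative when scaled to choroid plexus markers, and Kcnj13 (-0.027) and Calml4 (-0.014) when spots were thinned to equal depth. For 8 of the 10, all but Aqp1 and Ecrg4, both HF sections lay above both MF sections, as they did for 14.0% of features tested (1065 of 7600). Without MF replicate 1 the log2 fold changes were 0.21 for Ttr, 0.20 for Kcnj13, 0.34 for Clic6, 0.13 for Kl, 0.44 for Aqp1, 0.16 for Otx2, 0.081 for Enpp2, 0.48 for Calml4, 0.11 for Slc4a5 and -0.0086 for Ecrg4. Then edgeR called 3 features and none of the 10, without HF replicate 2 it called 2, and without MF replicate 2 it called 36, with Ttr and Enpp2 among them.

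Ttr was at 166504, 198426, 218545 and 223552 CPM in choroid plexus, a mean of 182465 (SD 22572) in MF and 221048 (SD 3541) in HF. Its log2 fold change was 0.35 (SE 0.161, edgeR adjusted p 0.516). MF replicate 1 was lowest, and HF and MF sections did not overlap. Kcnj13 had 199, 280, 299 and 321 CPM, with a log2 fold change of 0.52 (SE 0.200, edgeR adjusted p 0.353). Here too MF replicate 1 lay furthest from the rest, without overlap of the diets. Calml4 had 246, 251, 328 and 344 CPM and a log2 fold change of 0.52 (SE 0.196, edgeR adjusted p 0.315), its MF sections close to each other and below those of HF.

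Clic6 was at 1221, 1305, 1557 and 1617 CPM (log2 fold change 0.41, SE 0.183, edgeR adjusted p 0.4998), again with MF below HF. Otx2 had 66.8, 103, 113 and 109 CPM, and its log2 fold change of 0.57 was the largest of the 10 and had the widest error (SE 0.273, edgeR adjusted p 0.532). MF replicate 1 was low, and MF replicate 2 came within a few CPM of HF. Enpp2 was at 10886, 12696, 12807 and 13079 CPM (log2 fold change 0.21), Kl at 250, 280, 299 and 290 (0.26) and Slc4a5 at 185, 202, 209 and 211 (0.23). In these 3 genes MF replicate 2 lay closer to the HF sections than to MF replicate 1. Aqp1 had 429, 346, 483 and 425 CPM (0.28) and Ecrg4 1847, 2211, 2069 and 2165 CPM (0.14, edgeR adjusted p 0.895), and in both the diets overlapped.

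Markers were read in the same spots, and sums are over all measured markers of a list, tested or not. These were 12 ependymal, 11 white matter, 13 hypothalamic, 12 striatal, 11 cortical and 13 thalamic markers. Of 22 tested choroid plexus markers 16 had a positive log2 fold change (median 0.23). The 23 measured summed to 6124, 6830, 7579 and 7406 CPM, with Folr1 most abundant and none at 0. Ttr per UMI of these markers was 27.2, 29.1, 28.8 and 30.2. Scaling to them put the log2 fold changes of the 10 between -0.14 and 0.25, with 0 of the 10 among 170 features called by edgeR, and moved the median of all features to -0.31. Of the other markers, 10 of 10 ependymal ones were positive (median 0.42, summed 1254, 1264, 1647 and 1538 CPM, Pltp most abundant, Hdc at 0) and 11 of 11 of white matter negative (median -0.43, summed 17887, 12939, 12717 and 10795 CPM, Mbp most abundant). The 4 tested hypothalamic markers were also negative (median -0.73, all 13 measured summed to 494, 251, 216 and 293 CPM, Hap1 most abundant, Sim1 at 0). So were 5 of 6 of striatum (median -0.60, summed 1281, 1037, 1267 and 1117 CPM, Ppp1r1b most abundant), 3 of 4 of cortex (-0.61, 419, 362, 344 and 239 CPM, Mef2c) and 7 of 9 of thalamus (-0.28, 778, 539, 518 and 548 CPM, Adarb1), with none at 0. Scaled to choroid plexus markers, 11 of 22 of these and 6 of 10 ependymal markers were positive, and 11 of 11 of white matter, 4 of 4 of hypothalamus, 6 of 6 of striatum, 3 of 4 of cortex and 8 of 9 of thalamus were negative. The part of this tissue mix in the diet differences of the 10 genes was not tested, and in sums over spots fewer epithelial cells and less RNA per cell cannot be told apart.

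Of the 7 features that edgeR called in choroid plexus 5 fell and 2 rose, a split that depended on the sections and the scaling. Without MF replicate 1 there were 3 called up and 0 down, without MF replicate 2 there were 14 up and 22 down, without HF replicate 2 there were 2 up and 0 down, without HF replicate 1 there were 3 up and 3 down, with library size alone 1 up and 8 down, and scaled to choroid plexus markers 1 up and 169 down. Pmch was at 98.5, 28.8, 16.1 and 0.0 CPM (log2 fold change -3.31, edgeR adjusted p 1.21e-06), with MF replicate 1 far above the others. Htra1 had 106, 119, 32.2 and 44.1 CPM (-1.40, edgeR adjusted p 0.0146), and Gad2 a log2 fold change of -1.32 (edgeR adjusted p 0.0305). Egr1 had 28.1, 16.5, 80.4 and 99.9 CPM (log2 fold change 1.98, edgeR adjusted p 1.58e-04) and Ptgds 551, 461, 753 and 850 CPM (0.73, edgeR adjusted p 0.0393). In all of these the diets did not overlap.

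In whole sections no gene of the 10 was called by edgeR, and neither was any of 14971 features (0 called, 0%), while 7 of the 10 and 1020 of all features had an unadjusted p under 0.05. DESeq2 called 22 features, of which 1 was Ttr. The 10 log2 fold changes were all positive (median 0.52, against 0.002 over all features, 50.6% of which were positive), but Enpp2 turned negative when scaled to choroid plexus markers, Kl (-0.28) and Enpp2 (-0.082) when spots were thinned, and Otx2 (-0.041) without HF replicate 1 and Enpp2 (-0.079) without HF replicate 2. Both HF sections lay above both MF sections in 8 of the 10, and in 21.8% of features tested (3260 of 14971). Ttr was at 2387, 2245, 3351 and 3710 CPM, on average 2316 (SD 100) in MF and 3530 (SD 254) in HF, a 1.52-fold difference (log2 fold change 0.60, SE 0.0761, edgeR adjusted p 0.696). Both HF sections were well above both MF sections. Kcnj13 had 3.396, 3.68, 5.52 and 5.29 CPM (log2 fold change 0.61) with the same split, Slc4a5 had a log2 fold change of 0.64, Calml4 0.60, Aqp1 0.54, Clic6 0.49, Ecrg4 0.43, Otx2 0.26 and Kl 0.19. Enpp2 had 431, 421, 410 and 468 CPM (0.03), with the diets overlapping.

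The whole-section result turned on single libraries. HF replicate 2 stood apart in the areas it held: the Agrp and Ghrh region had 236, 136, 121 and 4 spots. There were 51, 43, 42 and 102 spots of the Six3 and Pvalb region, and 76, 63, 70 and 36 of the medial habenula. Hypothalamic markers summed to 1971, 1941, 1618 and 1010 CPM in distant spots. The part of these areas in the diet differences was not tested. Without MF replicate 1 edgeR called 0 features and without MF replicate 2 it called 1. Without HF replicate 1 it called 1166, among them Ttr, Kcnj13, Clic6, Calml4 and Ecrg4, and without HF replicate 2 it called 840, among them Ttr, Kcnj13, Calml4 and Ecrg4. Choroid plexus spots held 0.631%, 0.573%, 0.889% and 1.01% of the UMIs of a section, so the share of choroid plexus caught moved with diet in the same direction. Of 23 choroid plexus markers 21 were positive in whole sections (median 0.22), as were 11 of 12 ependymal ones (0.38), while 11 of 11 of white matter were negative (-0.29). Ttr per UMI of the choroid plexus markers was 9.91, 9.16, 11.7 and 13.6 there. Whether the share of choroid plexus accounts for the whole-section differences was not tested.

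In distant spots the level of Ttr was 967, 912, 961 and 1004 CPM (log2 fold change 0.06), and the diets overlapped. By edgeR 0 of the 10 genes and 0 of 14900 features (0%) were called, with 0 of the 10 and 944 features at an unadjusted p under 0.05, and DESeq2 called 16 features, none of the 10. The log2 fold change was positive for 6 of the 10 (median 0.07), and HF lay above MF in both sections for 1 of them, against 20.8% of features (3105 of 14900). The lowest log2 fold changes were -0.35 for Kl and -0.22 for Enpp2, which had 336, 335, 267 and 311 CPM, both MF sections above both HF sections. White matter markers, of tissue whose oligodendrocytes also make Enpp2, were negative in 11 of 11 cases there (median -0.29, summed 25682, 27093, 21244 and 22958 CPM, Mbp most abundant, none at 0), and with library size alone as well. The number of features called went to 1 without MF replicate 2, to 1081 without HF replicate 1 and to 650 without HF replicate 2, when Enpp2 was called. It stayed at 0 without MF replicate 1.

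A test of whether the diet difference was larger in choroid plexus than in distant spots called 0 of the 10 genes by edgeR, and 0.0207% of features (3 of 14462). An unadjusted p under 0.05 was seen for 0 of the 10 and for 778 features, and DESeq2 called 0. For 9 of the 10 the log2 interaction was positive (median 0.30, against -0.022 over all features, of which 48.3% were positive), from -0.07 for Slc4a5 to 0.66 for Otx2. That of Ttr was 0.28 (SE 0.411, edgeR adjusted p 0.991). Without MF replicate 1 the interactions of Aqp1 and Ecrg4 were negative too. Of the markers, those of choroid plexus were positive in 18 of 23 cases (median 0.27) and those of striatum negative in 11 of 12 (-0.75), of cortex in 8 of 11 (-0.53), of thalamus in 10 of 13 (-0.33), of hypothalamus in 8 of 13 (-0.34) and of white matter in 9 of 11 (-0.15), and their part in the interaction was not tested. Gad2 and Pcolce2 were among those called, and 2 features were called without MF replicate 1, 6 without MF replicate 2 and 5 without HF replicate 1.

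Within 6 named areas edgeR called no gene of the 10, although some were too low to be tested (8 of 10 were tested in cortex, 8 in hippocampus, 10 in thalamus, 6 in hypothalamus, 4 in striatum and 9 in white matter). Of all features it called 0.159% in cortex (21 of 13184), 0.357% in hippocampus (44 of 12338), 0% in thalamus (0 of 13393), 0% in hypothalamus (0 of 13035), 0.0860% in striatum (10 of 11631) and 0.00798% in white matter (1 of 12527). At an unadjusted p under 0.05 there were 1096, 1160, 953, 779, 817 and 613 features in these areas (0, 1, 1, 1, 1 and 1 of the 10 genes), and DESeq2 called 18, 27, 5, 5, 4 and 4 features, none of the 10. Without MF replicate 1 the calls over the 6 areas came to 52, without MF replicate 2 to 138, without HF replicate 1 to 2461 and without HF replicate 2 to 1197.

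Enpp2 had a negative log2 fold change in each of these areas, -0.42 in hippocampus, -0.39 in hypothalamus, -0.25 in thalamus, -0.24 in striatum, -0.16 in white matter and -0.10 in cortex. In hippocampus it was at 398, 272, 261 and 239 CPM (edgeR adjusted p 0.316), with MF replicate 1 far above the other 3 sections and MF replicate 2 close to HF. It was called there without MF replicate 2, HF replicate 1 or HF replicate 2, but not without MF replicate 1. In thalamus Enpp2 had 320, 327, 257 and 288 CPM (edgeR adjusted p 0.662), and in hypothalamus 318, 274, 221 and 239 CPM (edgeR adjusted p 0.804), HF below MF in both. The thalamic difference was called without HF replicate 2. White matter markers were negative in 11 of 11 cases in each of the 6 areas, also with library size alone, with medians of -0.65 in hippocampus, -0.38 in hypothalamus, -0.33 in thalamus and cortex, -0.17 in striatum and -0.16 in white matter, Mbp most abundant and none at 0. In hippocampus edgeR called all 11, and they summed to 16441, 15034, 10981 and 9677 CPM. Their sums were 27625, 25539, 23804 and 19343 CPM in hypothalamus, 28428, 30232, 23748 and 24030 in thalamus and 12879, 12999, 11113 and 9932 in cortex. They were 30234, 26485, 26201 and 24263 CPM in striatum and 81721, 98261, 92042 and 75312 in white matter. The part of white matter in the Enpp2 differences was not tested.

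Ttr by area had log2 fold changes of 0.31 in white matter, 0.15 in cortex, 0.12 in thalamus, 0.08 in hypothalamus, 0.03 in striatum and -0.04 in hippocampus (3044, 1445, 2161 and 2165 CPM, MF replicate 1 highest and MF replicate 2 lowest). With 1 section left out these ranged from -0.033 to 0.34 in cortex, -0.61 to 0.54 in hypothalamus, -0.070 to 0.13 in striatum and -0.48 to 0.59 in hippocampus, and thinning turned hippocampus to 0.043 and hypothalamus to -0.0042, so no direction is read from them. Clic6 in striatum had 0.45 (edgeR adjusted p 0.645). Without HF replicate 1, Ttr was called in hypothalamus and Clic6 in striatum and white matter.

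Partners of the 10 genes were read in the choroid plexus in the same way. Folate transport genes bear on the diet itself, and Folr1 was 166 times and Slc46a1 4.46 times higher than in distant spots, while Folr2 was not a feature. Their log2 fold changes with diet were 0.35 for Folr1, 0.26 for Slc19a1 and 0.22 for Slc46a1, none of them called by edgeR (0 of 3). Scaled to choroid plexus markers, 1 of 3 stayed positive. Of 17 genes of ion and water transport 16 had enough choroid plexus UMIs for a ratio. Of these 9 were at least 2-fold over distant spots, led by Fxyd1 (11.4 times), Slc4a2 (10.7) and Car14 (8.91). With diet 11 of 14 were positive (median 0.25, but 5 of 14 when scaled to the markers), with 0.56 for Slc12a4, 0.43 for Fxyd1, 0.35 for Lrrc8a and 0.32 for Stk39, and edgeR called 0.

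Of the carriers and receptors of thyroid hormone and retinoids, partners of Ttr, 12 were measured and 10 had enough choroid plexus UMIs for a ratio. Of these 10, 4 passed 2-fold over distant spots, among them Stra6 (13.0 times) and Slco1c1 (6.68). With diet 5 of 7 tested were positive (median 0.13, 3 of 7 when scaled to the markers), with Thrb at 0.45, Stra6 at 0.40 and Thra at -0.24. Of 9 receptors and phosphatases of lysophosphatidic acid, the product of Enpp2, 6 had enough choroid plexus UMIs for a ratio. Among them only Plpp1 was 2-fold over distant spots (2.78 times). All 3 tested with diet were negative under each scaling, Lpar1 at -0.71, Plpp3 at -0.34 and Plpp1 at -0.11. Among klotho partners Fgfr2 was higher (2.73 times) and had a log2 fold change of 0.51, with 0.16 for Fgfr1 and -0.24 for Fgfr3. Of the 5 genes of the adhesion complex of microvilli, to which Calml4 belongs, none had enough counts for the test. The choroid plexus markers with the largest fold changes were Wfikkn2 (0.90, edgeR adjusted p 0.0647), Trpv4 (0.81, edgeR adjusted p 0.121), Sostdc1 (0.63, edgeR adjusted p 0.153) and Tmem72 (0.55), none of them called.

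Across sums by area and section (n = 40 sums, which share libraries and depth), the features that followed the mean of the 10 most closely were Tmem72 (r = 0.98), Sostdc1, Cldn1, Folr1 and Mfrp (each 0.97), Kcne2, F5, Defb11 and Cldn2 (each 0.96) and Rbm47 (0.95). Of these 10 features 6 were on the list of choroid plexus markers. Within the 10 genes, the correlation with the mean of the other 9 was 0.98 for Ttr, 0.97 for Slc4a5, Ecrg4 and Aqp1, 0.95 for Enpp2 and Kl, 0.94 for Clic6 and Kcnj13, 0.90 for Otx2 and 0.85 for Calml4.

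In the RefSeq promoters of build GRCm38.p6, 250 bases before to 50 after a start, 7 of the 10 genes had 10 entries, 4 of them for Otx2. In the set of promoters used here no entry was matched to Ttr, Clic6 or Enpp2, which does not show that RefSeq holds none. The 10 genes lie on 8 chromosomes, Kcnj13 and Ecrg4 sharing chromosome 1 and Aqp1 and Slc4a5 chromosome 6.

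Motifs of factors active in the epithelium were sought on both strands. TAATCC, which reads GGATTA on the other strand and is the site of Otx2 and its relatives, was in 7.06% of all 32851 promoters (2320) and in 1 of the 10. TAATTA, a site of many homeodomain factors that reads the same on both strands, was in 5.29% of all and in 2 of the 10. GTAAACA, a forkhead site that reads TGTTTAC on the other strand, was in 3.65% of all, and the letters are not in these 10 windows. The 2 windows with a match, and that of Calml4, which differed most between the patches, are shown with motifs in capitals. The Otx2 window with 4 matches holds TAATTA at 3 places and GGATTA at 1.

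Otx2 promoter holding TAATTA and GGATTA, GRCm38.p6 chr14:48665060-48665359, minus strand: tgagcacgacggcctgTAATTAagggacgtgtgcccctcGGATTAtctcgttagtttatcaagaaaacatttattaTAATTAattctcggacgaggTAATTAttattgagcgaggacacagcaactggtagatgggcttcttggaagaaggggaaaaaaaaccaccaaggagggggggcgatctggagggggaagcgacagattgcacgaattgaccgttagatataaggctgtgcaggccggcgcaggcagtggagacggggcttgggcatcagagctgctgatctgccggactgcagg

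Otx2 promoter holding TAATTA, GRCm38.p6 chr14:48667595-48667894, minus strand: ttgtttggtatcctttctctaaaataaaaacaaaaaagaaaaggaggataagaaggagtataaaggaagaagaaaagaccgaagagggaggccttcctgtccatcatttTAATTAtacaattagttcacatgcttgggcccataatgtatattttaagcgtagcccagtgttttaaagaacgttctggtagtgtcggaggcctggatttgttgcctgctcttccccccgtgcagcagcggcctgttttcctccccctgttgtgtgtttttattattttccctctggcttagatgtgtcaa

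Calml4 promoter without these letters, GRCm38.p6 chr9:62857854-62858153, plus strand: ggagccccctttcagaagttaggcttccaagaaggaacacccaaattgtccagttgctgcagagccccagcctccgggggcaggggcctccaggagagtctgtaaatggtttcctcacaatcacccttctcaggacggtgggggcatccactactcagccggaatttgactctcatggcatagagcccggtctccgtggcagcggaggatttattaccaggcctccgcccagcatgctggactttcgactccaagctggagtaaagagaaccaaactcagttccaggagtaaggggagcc

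Several limits apply. There were 2 sections per diet, for which the smallest p of an exact permutation test is 0.333, so missing the threshold does not show that the diets were the same. Choroid plexus was read in 9 to 13 spots a section, each with neighbouring tissue in it, and the shares of the 2 patches differed between sections. MF replicate 1 held more than 2 times the UMIs of each other section. Litter and dam are not given in the sources used here. Probe counts show RNA and not secreted protein or fluid.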

How the data were processed

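As deposited by the authors and per the file headers, the values are UMI counts per spot from Space Ranger 2.0.0 (probe reads on mm10) and a score per feature, Moran's I, of how far like values lie together. Spots with at least 500 UMIs and 250 genes were kept (3598 of 3602, 3314 of 3316, 3197 of 3202 and 3343 of 3350). Clusters were found from 2000 variable genes without the 10 genes of interest, with 30 principal components, 20 neighbours and the Leiden method at resolution 1 (Python 3.11.15 with scikit-learn 1.9.0, igraph 0.11.9 and leidenalg 0.10.2), and named from lists of markers. Choroid plexus spots had medians of 52061, 26141, 25203 and 34557 UMIs, and all spots 23543.5, 12074.5, 9286 and 11831.

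Spots of a section are not replicates, so the published test over single spots was replaced by sums of UMI counts per section and area. These were tested with edgeR 4.0.16 in R 4.3.3 (TMM, filterByExpr, quasi-likelihood F test, section as a block where areas were compared), with p-values adjusted over all features tested by Benjamini-Hochberg. A feature was called at an adjusted p under 0.05 and at least 1.2-fold. SE is the log2 fold change over the root of F. DESeq2 1.42.0 was run beside it.

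The 10 genes, the marker lists and the partner lists were chosen with earlier results of these data known. Named were the 10 genes, up to 4 genes of each list by largest absolute log2 fold change, the 10 features most alike in level across areas, and the 3 largest changes in each direction among features called in choroid plexus. Some features that these rules would name are not reported here, among them 1 of the 3 called for the interaction. The comparison of patches, the scaling to choroid plexus markers, the crossed pairing and the areas at 8 or more steps were added after the data had been seen. Of 19465 features 19451 were matched in GENCODE vM21, where Ecrg4 is named 1500015O10Rik. Promoter sequences are from RefSeq (GRCm38.p6).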

Additional observations from a re-analysis of the deposited data

Results flagged for a closer look

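Gad2 had a diet difference that was more negative in choroid plexus than in distant spots (log2 interaction -1.57, edgeR adjusted p 0.0113), with 121, 82.3, 54.7 and 30.2 CPM in choroid plexus and 254, 263, 262 and 336 CPM in distant spots. Pcolce2 had 1.02 (edgeR adjusted p 0.0487), with 150, 181, 222 and 232 CPM in choroid plexus and 19.8, 17.5, 13.3 and 14.4 CPM in distant spots. DESeq2 called 0 features for the interaction. In distant spots the Gad2 level of HF replicate 2 stood above the other sections. Interactions were negative for 11 of 12 striatal and 8 of 11 cortical markers and positive for 18 of 23 of choroid plexus. The part of this tissue mix in both genes was not tested.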

How the results depend on the processing

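In whole sections, where edgeR called 0 features, DESeq2 called 22 and the fit without a filter on low counts called 5. Ttr was the 1 gene of the 10 called by each of these. Thinning spots to 5000 UMIs turned Kl to -0.28 and Enpp2 to -0.082, and scaling to choroid plexus markers turned Enpp2 to -0.155.

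In choroid plexus spots, where edgeR called 7 features, DESeq2 called 0, the thinned fit called 1 (of 979 tested), spots by marker sum gave 4, only spots with a direct neighbour of their kind gave 3, and scaling to choroid plexus markers gave 170. Without a filter 1 of the 10 genes was called, and with direct neighbours 1, Ttr in each case. Thinning turned Kcnj13 to -0.027 and Calml4 to -0.014. Scaling to markers turned Kl to -0.055, Aqp1 to -0.024, Enpp2 to -0.073, Slc4a5 to -0.090 and Ecrg4 to -0.14, while 5 of the 10 stayed positive. The marker sum used for this scaling was itself higher in HF as a share of UMIs. Its part in these reversals was not tested.

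In distant spots DESeq2 called 16 features and the fit without a filter 1, against 0 by edgeR. Thinning turned Clic6 to -0.032, Aqp1 to -0.091, Otx2 to 0.013 and Ecrg4 to 0.021. For the interaction DESeq2 called 0 features against 3. For the patches it called 61 against 355, and 0 of the 10 genes. Over the 6 named areas edgeR called 76 features, and 618 without a filter, with 1 of the 10 genes, Enpp2 in hippocampus. Ttr turned to 0.043 in hippocampus and -0.0042 in hypothalamus after thinning, to -0.0765 in striatum at Leiden resolution 2, and to -0.16 in striatum without spots within 2 steps of choroid plexus. The cause of these reversals was not tested.

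The log2 level over distant spots moved by more than its SD for spots by marker sum, to 7.42 for Ttr, 6.46 for Clic6, 6.23 for Kl, 7.11 for Aqp1, 5.01 for Enpp2 and 7.12 for Ecrg4, and with distant spots at 5 or more steps, to 7.93 for Ttr, 7.54 for Aqp1 and 7.60 for Ecrg4.

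With the replicate number as a block, edgeR called 0 features in whole sections, 6 in choroid plexus, 0 in distant spots and 153 in the named areas, and Ttr turned to 0.0519 in hippocampus and -0.0197 in hypothalamus. The correlation of the pairs was -0.165 in whole sections and -0.00523 in choroid plexus. The crossed pairing called 11, 5, 11 and 402 features, with 1 of the 10 genes in whole sections, and 0.0521 for Ttr in hippocampus and -0.0136 in hypothalamus.

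Each section was left out in turn, when the lone section of its diet is assumed to vary like the other diet. The features called ranged from 0 to 1166 in whole sections (0 to 5 of the 10 genes), 2 to 36 in choroid plexus (0 to 2), 0 to 1081 in distant spots (0 to 1), 2 to 6 for the interaction, 200 to 370 for the patches (1 to 2) and 52 to 2461 in the named areas (0 to 4). Log2 fold changes that changed sign ranged from -0.0411 to 0.5396 for Otx2 and -0.0787 to 0.138 for Enpp2 in whole sections, and -0.0086 to 0.2924 for Ecrg4 in choroid plexus. In distant spots they ranged from -0.0501 to 0.2891 for Kcnj13, -0.2037 to 0.325 for Clic6, -0.1461 to 0.4995 for Aqp1, -0.6821 to 0.3827 for Otx2 and -0.1433 to 0.0691 for Ecrg4. For the interaction the ranges were -0.0437 to 0.2985 for Aqp1, -0.4441 to 0.194 for Slc4a5 and -0.0609 to 0.4202 for Ecrg4, and for the patches -0.1218 to 0.0518 for Ttr and -0.2618 to 0.0468 for Kcnj13. Ttr ranged from -0.0325 to 0.3386 in cortex, -0.4779 to 0.5897 in hippocampus, -0.6106 to 0.5353 in hypothalamus and -0.07 to 0.1252 in striatum. In whole sections and choroid plexus, genes of the 10 that were called with a section left out kept their sign, in whole sections Ttr (0.51 to 0.68), Kcnj13 (0.55 to 0.66), Clic6 (0.29 to 0.66), Calml4 (0.50 to 0.68) and Ecrg4 (0.34 to 0.52), and in choroid plexus Ttr (0.21 to 0.50) and Enpp2 (0.08 to 0.35).

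Of the settings for the main results 188 were the same, 35 gave more calls, 14 fewer and 9 a moved level. The same here means a count of calls equal or close to the main one, or a level over distant spots within its SD. Such levels involve no call. Of the settings for single genes 735 were the same in sign and call, 45 reversed, 23 stronger and 4 weaker.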
